A study of Homo sapiens with 12 samples.

Results

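TOV112D is a human ovarian cancer cell line derived from an endometrioid carcinoma, and its transcript levels are described here against those of 3 other ovarian cancer lines. Its members are the 3 arrays titled for this line, of 12 in the study, which held 3 arrays for each of the untreated lines IGROV1, SKOV3, TOV112D and TOV21G. Affymetrix U133 Plus 2.0 arrays read a transcript with sets of short probes, and the values are on a log2 scale, so that a difference of 1 is a 2-fold difference in signal. Per the labels' protocols, TOV112D, IGROV1 and TOV21G were kept in RPMI medium and SKOV3 in DMEM, so medium and line cannot be told apart for SKOV3. No label says whether a line's arrays stand for separate cultures. The p-values therefore rest on array-to-array spread that may be technical. ERBB2, the receptor gene known to be amplified in SKOV3, was lowest on the arrays labelled SKOV3, with a mean of 8.14 against 8.48 in TOV21G, 8.82 in TOV112D and 9.01 in IGROV1. Those arrays are therefore called by their label, and counts that use them are also given without them.

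In most cells a complex built on AXIN proteins and APC marks beta-catenin for destruction. Where beta-catenin escapes, it joins TCF and LEF factors in the nucleus and switches on Wnt target genes, several of which code for brakes on the pathway itself. TOV112D is known for an activating mutation of the beta-catenin gene, and it has also been described as lacking the SMARCA4 and SMARCA2 ATPases of the SWI/SNF chromatin remodelling complex.

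Each gene was read from its brightest probe set by the mean of the 12 arrays, and 19775 genes were measured. A gene was called when limma's adjusted p was under 0.05 and the difference was at least 1 on the log2 scale. Against the mean of the other 3 lines, 1391 genes (7.03%) were called higher in TOV112D and 1510 (7.64%) lower. Genes called higher, or lower, in all 3 pairwise tests of TOV112D with another line are termed set apart. There were 1064 of them, 594 higher (3.0%) and 470 lower (2.38%). Counts of set apart genes in the lists below are to be read beside these shares. Without the arrays labelled SKOV3, where a gene had to differ from only 2 lines, 998 genes were set apart higher and 1032 lower. Among the 594 genes set apart higher, TOV112D exceeded the other lines' mean by a median of 2.43, and 70 genes differed by 5 or more. Among the 470 set apart lower it was -2.71, and 75 genes differed by 5 or more. The 3 TOV112D arrays differed little from each other in these genes, with a median range of 0.20 among the higher genes and 0.30 among the lower ones. On no set apart gene did a TOV112D array overlap with an array of another line, and the median gap to the nearest other array was 1.45 in either direction. Small ranges and such gaps largely follow from the rule, which asks for a called difference of at least 1 from each line. In 169 of the higher genes every other line had a mean under 4, and in 155 of the lower genes TOV112D itself did, which is near the floor of the scale, where a difference depends on that floor.

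The arrays labelled SKOV3 were the nearest to TOV112D. They correlated with the TOV112D arrays at 0.9121 to 0.9134 across genes, which are not independent replicates, against 0.8968 to 0.8993 for TOV21G and 0.8892 to 0.8909 for IGROV1. For 253 of the 594 genes set apart higher (42.6%) and 250 of the 470 set apart lower (53.2%), the nearest line mean was that of these arrays. A further 797 genes were called higher against the mean of the other lines without being set apart, and 579 of these were called against 2 of the 3 lines. In 290 of the 579 the line not called was the one labelled SKOV3, in 165 TOV21G and in 124 IGROV1. Among 1040 genes called lower but not set apart, 723 were called against 2 lines, and the exception was the line labelled SKOV3 in 431. ZEB2, a repressor of epithelial genes, is such a case: its mean was 8.47 in TOV112D, 7.58 on the arrays labelled SKOV3, 2.85 in TOV21G and 2.06 in IGROV1.

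**Figure D1:**
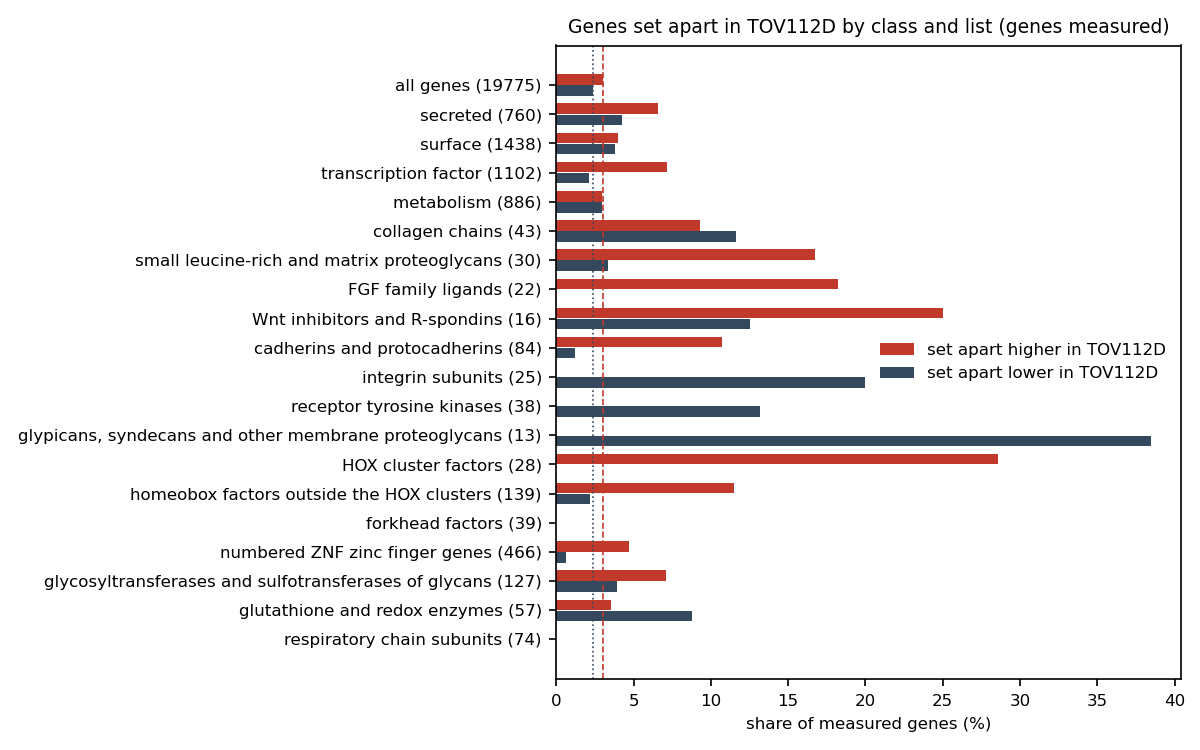
Share of measured genes set apart higher (red) or lower (dark) in TOV112D, in percent, for all genes, the 4 classes and 15 lists, with the number of genes measured in brackets. The dashed and dotted lines mark the shares over all genes, 3.0% and 2.38%; HOX cluster factors reach 28.6% higher and membrane proteoglycans 38.5% lower.

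Among genes for secreted proteins, TOV112D stood high for 2 peptide hormones and for some chains and proteoglycans of collagen fibrils, and near the floor for some matrix glycoproteins such as osteopontin. Of 760 secreted genes, 50 were set apart higher (6.58%) and 32 lower (4.21%), and their median difference was -0.07 against -0.02 over all genes. Without the arrays labelled SKOV3 the counts were 72 and 71. The class and its lists were drawn up with earlier results of these data known, so the counts are descriptions.

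GCG, which codes for the precursor of glucagon and the glucagon-like peptides, read 13.55, 13.53 and 13.39 on the TOV112D arrays and 2.15 to 2.55 on the other 9. The difference of 11.13 (SE 0.08, adjusted p = 1.9e-16) was the largest positive one of the class. PRL, the gene for prolactin, read 11.17, 11.11 and 11.27 in TOV112D and 2.95 to 3.48 elsewhere, a difference of 7.99 (SE 0.08, adjusted p = 1.5e-15). Proteins of the dense core granule went different ways. SCG5, a chaperone of prohormone convertase 2, had a mean of 7.09 ± 0.11 (SD, n = 3) against 2.77 to 3.57 in the other lines, and the granin CHGB one of 8.73 ± 0.10 (SD, n = 3) against 3.33 to 5.13. CHGA, another granin, had a mean of 4.03 and was not called, and CPE, a carboxypeptidase that trims prohormones, was called lower against the mean of the others (6.74 against 7.71 to 10.41). Of 74 peptide hormone and granule genes, 5 were set apart higher (6.76%, against 3.0% of all genes) and 2 lower (2.7%, against 2.38%). Against the mean of the others 8 of the 74 were called higher and 10 lower, with a median difference of -0.08. The 2 set apart lower, STC1 and STC2, code for stanniocalcins and had means of 4.93 and 3.98.

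The 250 bases before the RefSeq starts of GCG and PRL are shown because these genes were near the floor of the scale in the other lines and near its top here. Both lie on the minus strand of GRCh38.p14, GCG at chr2:162152248-162152497 and PRL at chr6:22297037-22297286, and are written 5′ to 3′ on the strand of the gene. Capitals mark matches to TATAAA on either strand, overlapping ones included. That motif was found in the 250 upstream bases of 3763 of 35116 RefSeq promoters (10.7%), and a match describes the letters only.
GCG: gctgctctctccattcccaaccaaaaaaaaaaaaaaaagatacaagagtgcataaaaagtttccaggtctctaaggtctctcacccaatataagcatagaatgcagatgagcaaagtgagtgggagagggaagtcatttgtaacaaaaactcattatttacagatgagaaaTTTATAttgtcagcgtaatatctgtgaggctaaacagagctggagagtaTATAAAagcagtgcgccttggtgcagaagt
PRL: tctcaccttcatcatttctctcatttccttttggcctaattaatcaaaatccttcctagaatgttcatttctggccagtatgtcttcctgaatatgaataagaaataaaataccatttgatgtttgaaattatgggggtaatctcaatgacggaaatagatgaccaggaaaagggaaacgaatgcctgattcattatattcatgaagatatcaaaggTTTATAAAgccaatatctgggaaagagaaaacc
On the gene's strand the match lies 30 to 25 bases before the start of GCG and 31 to 26 before that of PRL.

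Markers of the tissues that usually make these hormones were looked up in 3 lists. Of 22 islet and enteroendocrine markers measured, GCG and SCG5 were set apart higher, ISL1, a factor needed for islet cells, was set apart lower (4.83 against 6.02 to 7.05), and 13 had a mean under 4 in TOV112D. INS (insulin) had a mean of 3.24, PDX1 3.72, NKX2-2 2.30, RFX6 2.40 and NEUROG3 3.35, all within 0.20 of the mean of the other lines. The mean level of the list was 4.39 to 4.51 over the TOV112D arrays, against 3.87 to 4.19 over the other arrays. That mean includes GCG, a marker given for this line, and its lead over TOV21G and the arrays labelled SKOV3 depends on GCG. The median difference over the list was -0.10. Of 13 pituitary markers PRL alone was set apart. Of 20 markers of endometrial stroma and decidua, the tissue that makes prolactin in pregnancy, PRL and DCN were set apart higher and none lower. The progesterone receptor gene PGR (2.38), IGFBP1 (2.47), a main decidual product, and HAND2 (4.14) were near the floor in TOV112D, and FOXO1, a driver of decidual change, read 4.59 against 5.48 to 7.86. CEBPB, another decidual factor, had a mean of 9.21 against 8.98 to 11.99, and 5 of the 20 had a mean under 4.

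Of 43 collagen chains, 4 were set apart higher and 5 lower. COL3A1, a fibrillar chain, read 13.29, 13.30 and 13.22 in TOV112D and 2.55 to 2.92 on all other arrays, a difference of 10.52 (SE 0.08, adjusted p = 1.9e-16). COL5A2, which joins the same kind of fibril, read 12.32, 12.31 and 12.18, but also 10.90 on the arrays labelled SKOV3, against 3.81 in IGROV1 and 3.79 in TOV21G. COL11A1, a further fibrillar chain, and COL10A1, a network-forming one, were the others set apart higher, with means of 10.95 and 4.75. The 5 set apart lower were COL4A1, COL4A2 and COL4A5, chains of basement membranes, COL18A1, the source of endostatin, and COL27A1, a fibrillar chain (6.18 against 7.40 to 8.69). COL10A1, COL11A1, COL27A1 and COL4A5 were named after their values were seen. COL4A1 read 8.51, 8.46 and 8.51 in TOV112D and 10.80 or more elsewhere, and COL18A1 read 6.57, 6.73 and 6.75 against 9.60 to 10.02. Basement membrane genes went both ways: NID2 (nidogen 2) had a mean of 2.98 against 6.64 to 11.86 and LAMC1 one of 9.57 against 10.98 to 11.75, while LAMA2 and LAMC3 were higher by 2.25 and 2.82.

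Of 30 small leucine-rich and matrix proteoglycan genes, 5 were set apart higher and 1, VCAN, lower. Against the mean of the others 5 were called in each direction, and the median difference was -0.09. LUM (lumican) read 11.64, 11.40 and 11.47 in TOV112D and 1.94 to 2.33 on the other arrays, and KERA (keratocan) 7.93, 8.07 and 8.11 against 1.89 to 2.33. DCN (decorin) had a mean of 9.75 against 4.54 to 5.05, from a probe set open to cross-hybridisation, and its 7 probe sets differed by -0.11 to 6.43. Of 16 genes that serve the processing and cross-linking of collagen, 3 were set apart higher (18.8%, against 3.0% of all genes) and 0 lower. Against the mean of the others 4 of the 16 were called higher and 3 lower, with a median difference of 0.03. LOX had a mean of 8.51 ± 0.09 (SD, n = 3) against 4.69 to 7.45, and PCOLCE one of 9.14 ± 0.12 against 5.72 to 8.06. The matrix glycoprotein gene HMCN1 (9.77 against 2.42 to 3.86) and EFEMP2, an elastic fibre protein (8.52 against 3.68 to 6.06), were higher as well.

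Of 67 matrix glycoproteins, 6 were set apart in each direction, with a median difference of -0.13. SPP1 (osteopontin) read 2.83, 2.99 and 2.81 in TOV112D and 12.68 to 13.63 elsewhere, a difference of -10.18 (SE 0.05, adjusted p = 2.6e-17). THBS1 (thrombospondin 1) had a mean of 3.26 against 6.56 to 11.12, and TNC (tenascin C) one of 3.09 against 6.01 to 10.51. SVEP1 (7.80 against 4.37 to 4.80), THBS3 (8.24 against 5.53 to 6.88) and the integrin-binding FBLN5 (6.21 against 3.81 to 4.21), named after their values were seen, were higher.

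Proteases of the matrix went both ways, with 4 of 52 set apart higher (7.69%, against 3.0% of all genes) and 3 lower (5.77%, against 2.38%). Against the mean of the others 7 of the 52 were called higher and 6 lower, with a median difference of -0.02. MMP10 read 12.62, 12.69 and 12.64 against 2.60 to 5.94 on the other arrays, and ADAMTS5, an aggrecanase, 10.46, 10.20 and 10.51 against 2.25 to 4.14. MMP7 had a mean of 4.67 against 6.97 to 11.99, and ADAMTS9 one of 3.48 against 7.09 to 9.47. PLAU, the urokinase that activates plasminogen, read 4.32, 4.37 and 4.59 and at least 8.29 elsewhere.

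Growth factors and chemokines, which signal to other cells, were set apart in both directions. VEGFC, a growth factor for lymphatic vessels, read 9.65, 9.57 and 9.62 in TOV112D and 2.39 to 3.25 on the other arrays. CXCL14, a chemokine, had a mean of 10.21 ± 0.12 (SD, n = 3) against 3.38 to 3.52, while CXCL3, a neutrophil attractant, had one of 3.32 against 5.96 to 8.26. Of 38 chemokines 1 was set apart each way (2.63%), near the shares over all genes (3.0% and 2.38%). Against the mean of the others 1 of the 38 was called higher and 9 lower. Of 75 interleukins and other cytokines 2 were called higher and 10 lower. TGFB2 (9.83 against 3.46 to 6.09) and INHBA, an activin subunit (8.66 against 3.55 to 6.62), were higher, and so was NOG, the BMP antagonist noggin (10.42 against 3.11 to 7.87). None of 9 EGF family ligands was set apart by limma. At an unadjusted p under 0.05 against each line 1 was higher (11.1%) and 0 lower, against 13.6% and 9.95% of all genes. Their median difference was -1.07, and 5 were called lower against the mean of the others. None of 17 Wnt ligands was set apart either, and 0 passed the unadjusted rule.

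**Figure D2:**
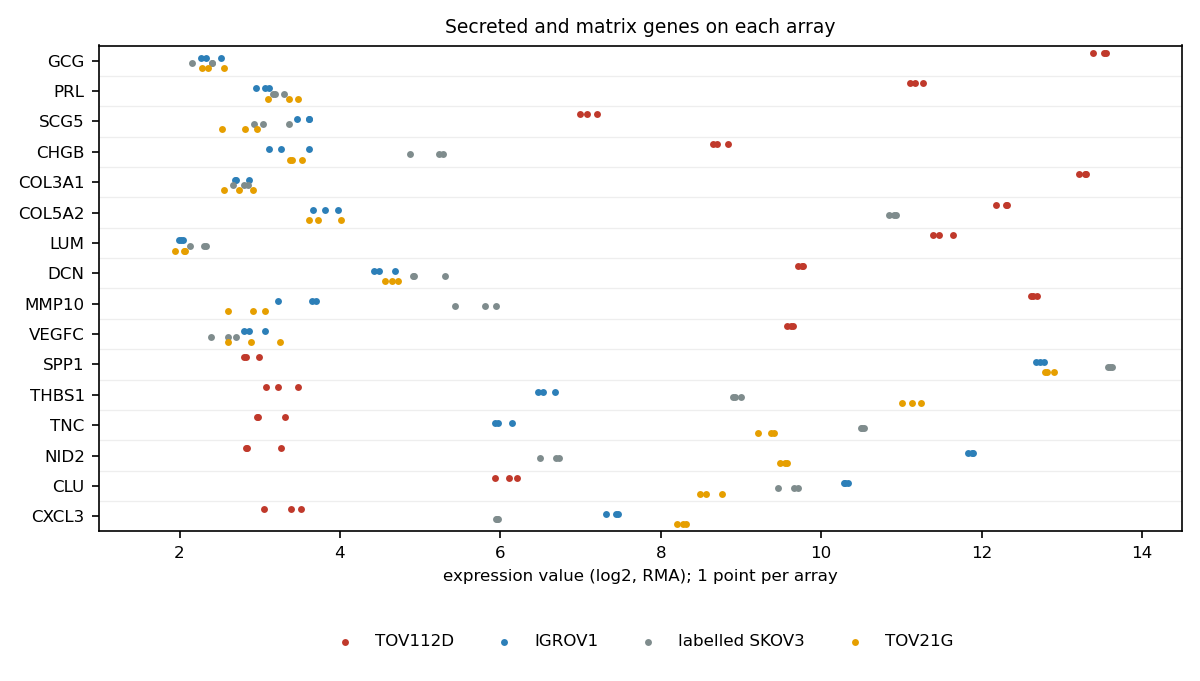
Expression values on the log2 scale (horizontal axis) of 16 secreted and matrix genes, 1 point per array and 3 arrays per line in 4 colours. The TOV112D points stand alone at the right for GCG (13.39 to 13.55) down to VEGFC, and alone at the left from SPP1 (2.81 to 2.99) down to CXCL3.

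Among genes for surface proteins, transcripts of some protocadherins and of the junction genes CLDN11 and JAM2 were higher in TOV112D. Those of some integrins, membrane proteoglycans and receptor tyrosine kinases were lower. Of 1438 surface genes, 57 were set apart higher (3.96%) and 55 lower (3.82%), and the median difference was -0.05. Without the arrays labelled SKOV3 the counts were 87 and 114.

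Cadherins and protocadherins, which bind like to like between cells, gave 9 genes set apart higher of 84 and 1 lower. Against the mean of the others 12 were called higher and 10 lower, and the median difference was 0.01. PCDH18 read 11.83, 11.95 and 11.92 in TOV112D, 8.08 on average on the arrays labelled SKOV3, and 3.38 and 3.43 in IGROV1 and TOV21G. PCDHB5 had a mean of 9.33 against 2.42 to 3.07, PCDH7 one of 9.24 against 2.71 to 2.89 and CDH12 one of 8.74 against 2.30 to 2.40. DSG2, a desmosomal cadherin, was the 1 set apart lower, with 5.33, 5.52 and 5.33 in TOV112D against 9.72 to 11.54 on the other arrays. CLDN11, a claudin of tight junctions, read 12.05, 12.09 and 12.08 against at most 5.55 elsewhere, and JAM2 9.69, 9.79 and 9.62 against at most 3.62. Of 44 claudins, junction adhesion molecules and connexins, these were the 2 set apart (4.55%, against 3.0% of all genes set apart higher). Against the mean of the others 4 of the 44 were called higher and 8 lower, with a median difference of -0.06. ROBO2, a receptor for SLIT ligands, had a mean of 8.32 against 2.41 to 2.53, and SLIT2, which binds it, one of 7.62 against 3.91 to 5.37.

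Integrins, the receptors that tie cells to the matrix, had 5 of 25 genes set apart lower and none higher. ITGB8 read 2.38, 2.66 and 2.01 in TOV112D, 6.58 to 11.48 elsewhere, and ITGA3 had a mean of 4.06 against 6.57 to 8.46. The others, ITGA2, ITGA6 and ITGB5, were named after their values were seen, with means of 4.07, 6.73 and 7.10. The median difference over all 25 was 0.01. CD44, which binds hyaluronan, read 2.45, 2.17 and 2.00 in TOV112D and 10.35 to 11.08 on the other arrays, a difference of -8.47 (SE 0.07, adjusted p = 8.5e-16). Its 13 probe sets differed by -8.47 to 0.03. SDC2, a syndecan, had a mean of 5.07 ± 0.38 (SD, n = 3) against 8.90 to 11.56, and 5 of 13 membrane proteoglycans were set apart lower, with a median difference of -1.37 over the 13. NECTIN3 and NRCAM, adhesion molecules of the immunoglobulin family, had means of 2.89 and 3.04 against 7.40 or more in every other line.

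Receptor tyrosine kinases outside the Eph family, which carry growth factor signals, had 5 of 38 genes set apart lower and none higher. MET, the receptor of hepatocyte growth factor, read 3.44, 3.09 and 3.86 in TOV112D and 8.47 to 12.02 elsewhere, a difference of -6.84 (SE 0.11, adjusted p = 1.6e-13). ROR1, a receptor for WNT5A, read 2.85, 2.55 and 2.54 against 6.64 to 9.53. FGFR2 (mean 3.44), EGFR (5.10) and AXL (7.13) were the other 3, named after their values were seen. Eph receptors divided: EPHA3 (10.40 against 2.17 to 7.29) and EPHA7 (10.77 against 3.21 to 8.41) were higher, and EPHA2 (6.33 against 7.81 to 9.22) and EPHA4 (4.27 against 6.32 to 7.38) lower. LIFR and the death receptor FAS were lower by 3.28 and 3.94 in size, with means of 5.06 and 5.49.

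Among receptors for soluble signals, PTGER4, a prostaglandin E2 receptor, read 10.25, 10.28 and 10.31 in TOV112D and 2.41 to 6.89 on the other arrays. PTGS2, the cyclooxygenase that makes prostaglandins, read 7.16, 7.28 and 7.37 against at most 2.46. Of 259 G protein-coupled receptors 10 were set apart higher (3.86%) and 6 lower (2.32%), near the shares over all genes (3.0% and 2.38%). CD36, a scavenger receptor for fatty acids, had a mean of 7.97 against 3.0 to 3.23. Of 335 solute carriers 15 were set apart higher (4.48%) and 5 lower (1.49%). SLC38A11 had a mean of 9.48 against 2.59 to 3.07. SLC40A1 (ferroportin), the cell's iron exporter, had one of 8.59 against 2.65 to 4.61, and CYBRD1, an iron reductase, one of 9.87 against 3.14 to 6.71. SLC2A1, the glucose transporter GLUT1, read 4.31, 4.65 and 4.64 in TOV112D and 7.68 to 9.63 elsewhere.

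Among transcription factors, 79 of 1102 genes were set apart higher (7.17%) and 23 lower (2.09%), with a median difference of 0.07. Without the arrays labelled SKOV3 the counts were 126 and 46. HOX genes, other homeobox genes, T-box genes and the GATA list held more genes set apart higher than lower, and the forkhead list held none.

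HOX genes, which set position along the body, had 8 of 28 set apart higher and none lower, with a median difference of 1.17. HOXC6 read 11.09, 10.97 and 11.17 in TOV112D, 8.95 on average in TOV21G, and 2.32 and 2.59 in IGROV1 and the arrays labelled SKOV3. HOXB3 read 11.02, 10.97 and 10.96, with 8.84 in IGROV1 and 2.94 and 3.60 in the others. The line nearest to TOV112D thus differed from gene to gene. Outside the HOX clusters 16 of 139 homeobox genes were set apart higher and 3 lower. MEIS1, a partner of HOX proteins, had a mean of 10.33 against 3.42 to 6.12, and EN1 one of 7.52 against 1.91 to 2.42. In the T-box family TBX2 read 10.44, 10.01 and 10.54 against at most 4.87, and TBX1 had a mean of 8.17 against 4.39 to 5.11. TRPS1 and GATA3 were among 3 of 7 GATA type factors set apart higher, with means of 10.18 and 8.29. None of 39 forkhead factors was set apart by limma. At an unadjusted p under 0.05 against each line, and any size of difference, 3 of them were higher and 1 lower, against 13.6% and 9.95% of all genes.

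Factors known from the passage of epithelial cells to a mesenchymal state differed in opposite directions. TWIST1 read 12.11, 11.94 and 12.18 in TOV112D, 7.82 and 7.12 on average in the arrays labelled SKOV3 and TOV21G, and 2.51 in IGROV1. SNAI2 (Slug) had a mean of 6.83 against 2.52 to 5.78. ZEB1, a factor of the same programme, read 3.15, 3.86 and 3.44 in TOV112D and 7.76 to 9.19 on the other arrays, a difference of -5.13 (SE 0.11, adjusted p = 1.2e-12). All 4 probe sets of ZEB1 were lower, by 0.71 to 5.13 in size. The factors TFAP2A (3.39 against 9.74 to 10.62) and KLF5 (3.82 against 5.61 to 10.08), both known from epithelia, were lower too.

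HEY1 and HEY2, repressors that answer to Notch, were higher in TOV112D. HEY1 read 11.92, 11.96 and 11.95 against at most 6.61 elsewhere, and HEY2 9.61, 9.54 and 9.71 against at most 5.39. The Notch receptors and ligands themselves had none of 11 set apart higher and 1 lower. EGR1 and EGR3, zinc finger factors that growth signals switch on rapidly, were higher: EGR1 read 10.82, 10.82 and 10.76 against 4.74 to 8.47, and EGR3 7.72, 7.66 and 7.74 against at most 3.87. Of 47 AP-1, CREB, CEBP and MAF factors, 3 were set apart higher and 4 lower. FOS read 6.53, 6.43 and 6.80 against at most 4.70. Its partner JUN, named after its values were seen, was lower, with a mean of 7.03 against 9.39 to 10.56, from a probe set open to cross-hybridisation. EPAS1, the hypoxia factor HIF-2alpha, read 3.48, 3.07 and 3.51 in TOV112D and 8.57 to 11.86 elsewhere. ETS1 (6.34 against 9.59 to 10.45) and SMAD3, which carries TGF-beta signals (5.89 against 7.64 to 9.45), were lower, and the retinoic acid receptor gene RARB was higher (9.28 against 3.81 to 5.65). Of 466 numbered ZNF genes 22 were set apart higher (4.72%, against 3.0% of all genes) and 3 lower (0.644%, against 2.38%). Among the lower ones was ZNF22, at 2.95 against 8.89 to 10.21.

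Metabolic genes were set apart about as often as genes in general. Of 886, 26 were higher (2.93%) and 26 lower (2.93%), with a median difference of -0.08, and without the arrays labelled SKOV3 the counts were 45 and 67. No gene of 74 respiratory chain subunits, 19 citric acid cycle enzymes or 47 cytochrome P450 enzymes was set apart by limma. At an unadjusted p under 0.05 against each line, and any size of difference, 13.6% of all genes were higher and 9.95% lower. By that rule 5 of the 74 respiratory chain subunits were higher (6.76%) and 13 lower (17.6%). For citric acid cycle enzymes 1 was higher (5.26%), and for P450 genes 3 were higher (6.38%) and 2 lower (4.26%).

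ALDH1A1, which makes retinoic acid from retinal and is used as a marker of stem-like tumour cells, read 12.23, 12.35 and 12.30 in TOV112D. The other lines had means of 8.72, 7.51 and 2.53. GALNT3 (9.53 against 2.39 to 6.45), which starts O-linked sugar chains, and FUT9 (8.04 against 2.32 to 2.58), which adds fucose, led 9 of 127 glycan enzymes set apart higher. GCNT2 and CHST2 led the 5 set apart lower, with means of 2.70 and 4.21. TDO2, a tryptophan dioxygenase, had a mean of 6.57 against 2.46 to 2.99, CPT1C one of 9.37 against 5.37 to 6.22, and SPHK1, which makes sphingosine 1-phosphate, one of 9.25 against 3.48 to 7.51.

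ME1, the cytosolic malic enzyme that supplies NADPH, read 3.73, 4.26 and 3.95 in TOV112D and 9.24 to 10.55 on the other arrays, a difference of -5.94 (SE 0.09, adjusted p = 4.2e-14). Glutathione and redox enzymes had 5 of 57 set apart lower (8.77%, against 2.38% of all genes) and 2 higher (3.51%, against 3.0%). Against the mean of the others 11 of the 57 were called lower and 8 higher, with a median difference of -0.18. MGST2 had a mean of 5.37 against 8.41 to 9.38 and PRDX2, a peroxiredoxin, one of 9.14 against 11.34 to 12.39, while GSTA4 was higher by 1.71. TKT, of the pentose phosphate pathway, was lower by 1.22 in size, at 10.85. The endothelial lipase gene LIPG read 2.35, 2.63 and 2.71 against at least 6.14, and the nucleoside enzyme UPP1 4.67, 5.62 and 4.97 against at least 6.90.

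**Figure D3:**
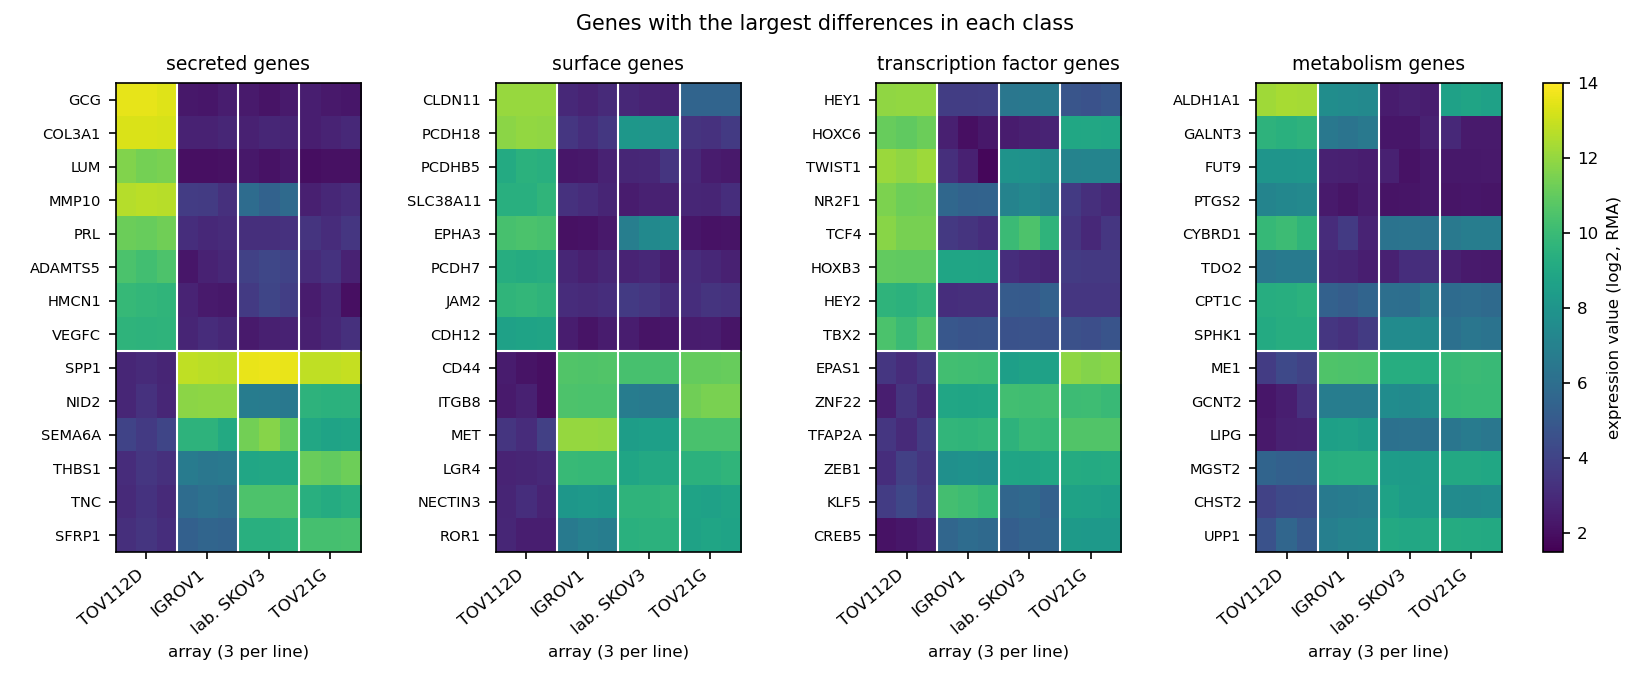
Heat map of 14 genes per class (rows), the 8 most raised above and the 6 most lowered below the other lines, on the 12 arrays (columns, 3 per line), coloured by log2 expression value. Above the white line TOV112D is brighter and below it darker than every other array; SPP1 runs from 2.81 in TOV112D to 13.63 on an array labelled SKOV3.

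Of 27 beta-catenin feedback and target genes measured, 7 were set apart higher (25.9%, against 3.0% of all genes). CD44 and VCAN were the 2 set apart lower (7.41%, against 2.38%). Against the mean of the others 8 of the 27 were called higher and 4 lower, with a median difference of 0.09. These genes were chosen with this line's high AXIN2 known. AXIN2, itself part of the destruction complex, read 12.01, 11.92 and 11.95 in TOV112D, 9.09 on average on the arrays labelled SKOV3, 5.55 in TOV21G and 4.74 in IGROV1. LEF1, a partner of beta-catenin on DNA, had a mean of 9.47 and APCDD1 one of 9.52, each again nearest to the arrays labelled SKOV3 (7.84 and 6.64). WIF1, a secreted inhibitor of Wnt ligands, read 9.61, 9.68 and 9.55 in TOV112D and 2.36 to 3.50 elsewhere, and FGF9 7.82, 7.73 and 7.96 against 3.18 to 3.67. TNFRSF19 had a mean of 11.79 against 5.50 to 9.03. FGF20 was the 7th, at a low level of 4.13 against 2.55 to 2.89.

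Some other targets were near the floor, among them LGR5 (3.41), SP5 (3.42), DKK4 (3.25) and ASCL2 (4.09), each within 0.20 of the mean of the other lines. NKD1, NOTUM and ZNRF3 were higher by 0.88, 0.67 and 0.35, under the difference of 1 asked for here. RNF43 (-0.77) and BAMBI (-0.33) were lower by less than that. DKK1 had a mean of 11.90 in TOV112D and 11.95 in TOV21G, and so was not set apart. SOX9 was lower by 3.23 in size and CCND2 by 2.13, each called against the mean of the others without being set apart. Without the arrays labelled SKOV3 the CCND2 difference was -0.34. Upstream of beta-catenin, the R-spondin receptor LGR4 read 2.74, 2.81 and 2.92 in TOV112D and 8.85 to 9.91 elsewhere, and SFRP1 had a mean of 3.25 against 5.45 to 10.34. DKK2 (8.41 against 2.15 to 2.38) and FZD1, a Wnt receptor (9.47 against 6.99 to 7.87), were higher.

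SMARCA4, an ATPase of the complex, read 7.08, 7.01 and 7.24 in TOV112D and 10.11 to 10.41 on the 9 other arrays, a difference of -3.18 (SE 0.06, adjusted p = 2.5e-13). Its mean of 7.11 in TOV112D lay above the median of all gene values, 5.68, and its 9 probe sets differed by -3.33 to 0.34. It was the 1 subunit of 28 set apart lower. SMARCA2, the alternative ATPase, had a mean of 2.65 in TOV112D, 2.85 in IGROV1, 3.83 on the arrays labelled SKOV3 and 6.73 in TOV21G, from a probe set open to cross-hybridisation. With such probe sets left out its difference was 0.02, and its 7 probe sets differed by -1.82 to 1.38. SMARCC2, a core subunit, was higher at 9.12 against 7.76 to 7.83, though by only 0.76 in the mean of its probe sets. BICRAL was higher by 1.20. The core subunits SMARCB1 (8.14 against 8.07 to 8.24), SMARCE1 and SMARCC1 differed by 0.04 to 0.11 in size. ARID1A was called higher by 1.29, with 10.15 in TOV112D and 7.46 in TOV21G, and was not set apart.

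**Figure D4:**
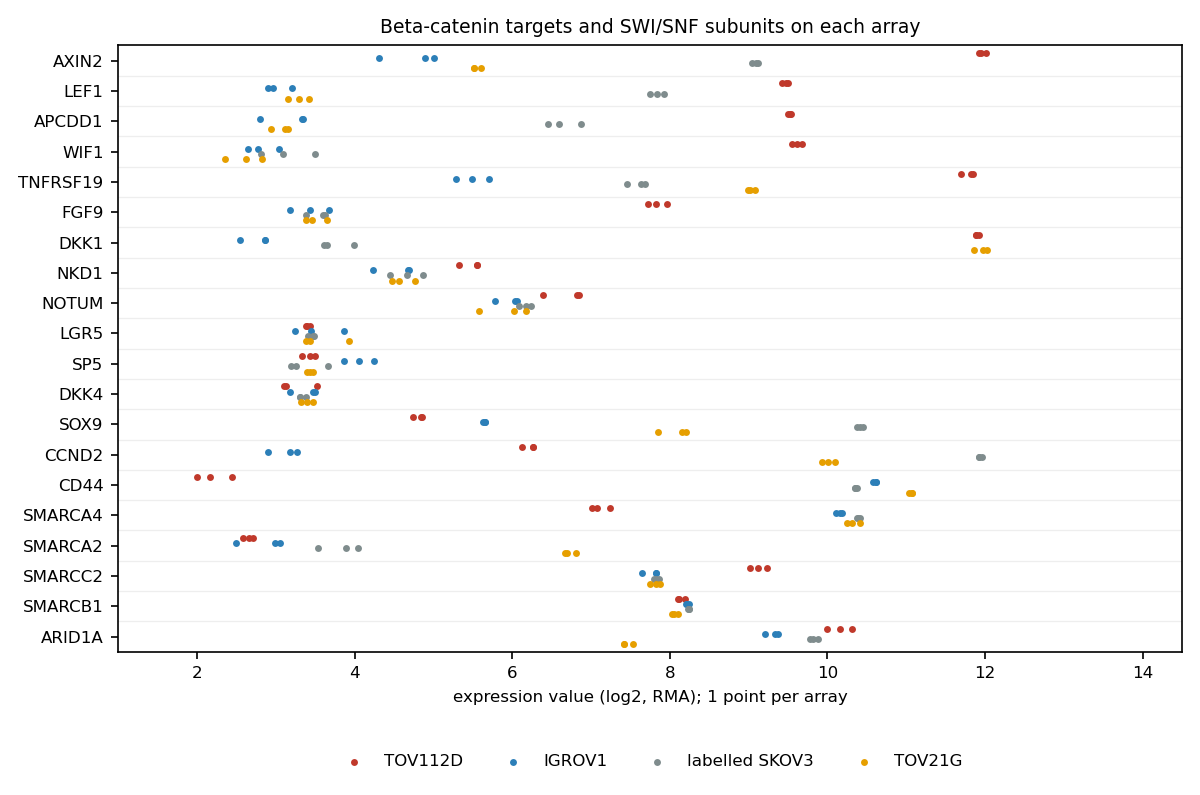
Expression values on the log2 scale (horizontal axis) of 15 beta-catenin feedback and target genes and 5 SWI/SNF subunits, 1 point per array and 3 arrays per line in 4 colours. TOV112D lies alone at the right for AXIN2 (11.92 to 12.01) to FGF9, with the other lines for LGR5, SP5 and DKK4, and alone at the left for CD44 and SMARCA4.

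Of 24 fibroblast markers, 7 were set apart higher, among them COL3A1, LUM, DCN, LOX, TWIST1 and FAP, and 1 lower, S100A4 (4.88 against 11.25 to 13.12). The mean level of this list was 7.58 to 7.69 over the TOV112D arrays, 7.22 to 7.27 on the arrays labelled SKOV3, 5.16 to 5.22 in TOV21G and 4.82 to 4.87 in IGROV1. The list holds COL3A1 and LUM, markers given for this line, and the lead of TOV112D over the arrays labelled SKOV3 depends on them. Of 22 simple epithelial markers, none was set apart higher and 3 lower, 14 were called lower against the mean of the others, and 10 had a mean under 4 in TOV112D, the same number as on the arrays labelled SKOV3. That list averaged 4.20 to 4.31 over the TOV112D arrays, 4.89 to 5.06 on the arrays labelled SKOV3, 6.05 to 6.11 in TOV21G and 8.27 to 8.32 in IGROV1. KRT18 and KRT8, keratins of simple epithelia named after their values were seen, had means of 5.01 and 5.29 in TOV112D and of 8.61 or more in the other lines, from probe sets open to cross-hybridisation. WT1, a mesothelial and serous marker, read 2.99, 3.74 and 3.12 against 5.27 to 8.89. Blood cell markers averaged 3.80 to 3.85 over the TOV112D arrays and 3.74 to 3.86 over the others, and endothelial markers 4.07 to 4.17 against 4.08 to 5.0. None of 15 endothelial markers was set apart by limma. At an unadjusted p under 0.05 against each line 2 were higher (13.3%, against 13.6% of all genes). Of 18 neural and neuroendocrine markers, 3 were set apart higher, with CHGB and STMN2 (6.00 against 2.72 to 2.81) among them. Whether a minority of cells of another type took part in any of these values was not tested, and fewer expressing cells and less RNA per cell cannot be told apart in bulk RNA.

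Genes set apart in 1 direction lay next to each other in 13 runs of 3 or more measured genes, 7 higher and 6 lower, which held 46 of the 1062 set apart genes that could be placed in RefSeq order. The 4 proteoglycan genes EPYC, KERA, LUM and DCN made up such a run, higher by 3.31 to 9.41. GCG stood beside FAP, a serine protease of activated fibroblasts, and IFIH1. FAP read 7.50, 7.50 and 7.73 against 3.47 to 4.11, and IFIH1, which codes for the viral RNA sensor MDA5, read 10.99, 10.64 and 10.77 against 2.32 to 6.39. HOXC10, HOXC9 and HOXC8 formed a run that was higher by 1.97 to 4.46. SLC7A2, PDGFRL, MTUS1, FGL1 and PCM1 were higher by 1.64 to 7.22. Further runs that were higher held FAM171B, ZSWIM2, CALCRL and TFPI, then EPHA7, MANEA and FUT9, and SCN2A, CSRNP3 and GALNT3.

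Among the runs that were lower, TES, CAV2, CAV1 and MET differed by -6.84 to -4.66. CAV1 and CAV2 code for caveolins, coat proteins of small membrane pits: CAV1 read 6.29, 6.65 and 6.51 in TOV112D and 10.58 to 11.55 elsewhere, and CAV2 4.84, 5.08 and 4.50 against 9.20 to 11.42. COL4A1, COL4A2 and RAB20 were lower by 2.16 to 3.19 in size. THEM4, S100A10 and S100A11 made up another, with S100A10, the partner of annexin A2, at 9.84 against 12.41 to 12.73. DKK3, MICAL2 and PARVA were lower by 2.65 to 4.42 in size, and LINC00518, GCNT2, C6orf52, PAK1IP1 and TMEM14C by 1.24 to 5.40. With a gene's probe sets averaged LINC00518 differed by -0.98. IFITM2, IFITM1 and IFITM3, related genes that block virus entry and whose probes may read each other, were lower by 5.49 to 7.26 in size. IFITM3 read 4.35, 4.19 and 4.0 in TOV112D and 10.33 to 12.61 elsewhere, and IFITM1 3.87, 3.64 and 3.86 against 7.22 to 10.95.

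IFIH1 and the IFITM genes are all known to respond to interferon, and they stood at opposite ends in TOV112D, so their upstream bases are shown together. They lie at chr2:162318685-162318934 (IFIH1, minus strand), chr11:313790-314039 (IFITM1, plus strand) and chr11:320861-321110 (IFITM3, minus strand) of GRCh38.p14, each 250 bases before the RefSeq start, written 5′ to 3′ on the strand of the gene. Capitals mark matches to GAAANNGAA, the core of the element bound by interferon-activated factors, on either strand and with overlapping matches joined. It was found in 2416 of 35116 promoters (6.88%).
IFIH1: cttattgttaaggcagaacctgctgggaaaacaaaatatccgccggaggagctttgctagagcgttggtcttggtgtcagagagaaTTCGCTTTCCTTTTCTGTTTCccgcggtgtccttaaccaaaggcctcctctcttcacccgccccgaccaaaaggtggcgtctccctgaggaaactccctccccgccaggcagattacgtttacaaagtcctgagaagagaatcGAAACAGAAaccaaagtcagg
IFITM1: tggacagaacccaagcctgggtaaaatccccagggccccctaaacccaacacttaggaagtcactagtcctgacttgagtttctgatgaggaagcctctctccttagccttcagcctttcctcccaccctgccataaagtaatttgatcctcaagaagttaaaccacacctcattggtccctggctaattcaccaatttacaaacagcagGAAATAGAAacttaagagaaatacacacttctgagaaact
IFITM3: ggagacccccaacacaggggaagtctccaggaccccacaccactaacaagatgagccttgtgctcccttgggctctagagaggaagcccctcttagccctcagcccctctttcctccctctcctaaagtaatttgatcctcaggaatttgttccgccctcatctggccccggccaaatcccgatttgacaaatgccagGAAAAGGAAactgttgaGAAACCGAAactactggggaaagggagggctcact
The motif stood in all 3 windows, in the gene that was higher and in the IFITM genes that were lower. In IFIH1 the matches lay at 164 to 144 and at 21 to 13 bases before the start. In IFITM1 the match lay at 40 to 32, and in IFITM3 they lay at 52 to 44 and at 35 to 27. IRF7, an interferon factor, was the 1 of 23 STAT, IRF and NF-kappaB factors set apart, at 4.23 ± 0.60 (SD, n = 3) against 5.90 to 6.63.

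**Figure D5:**
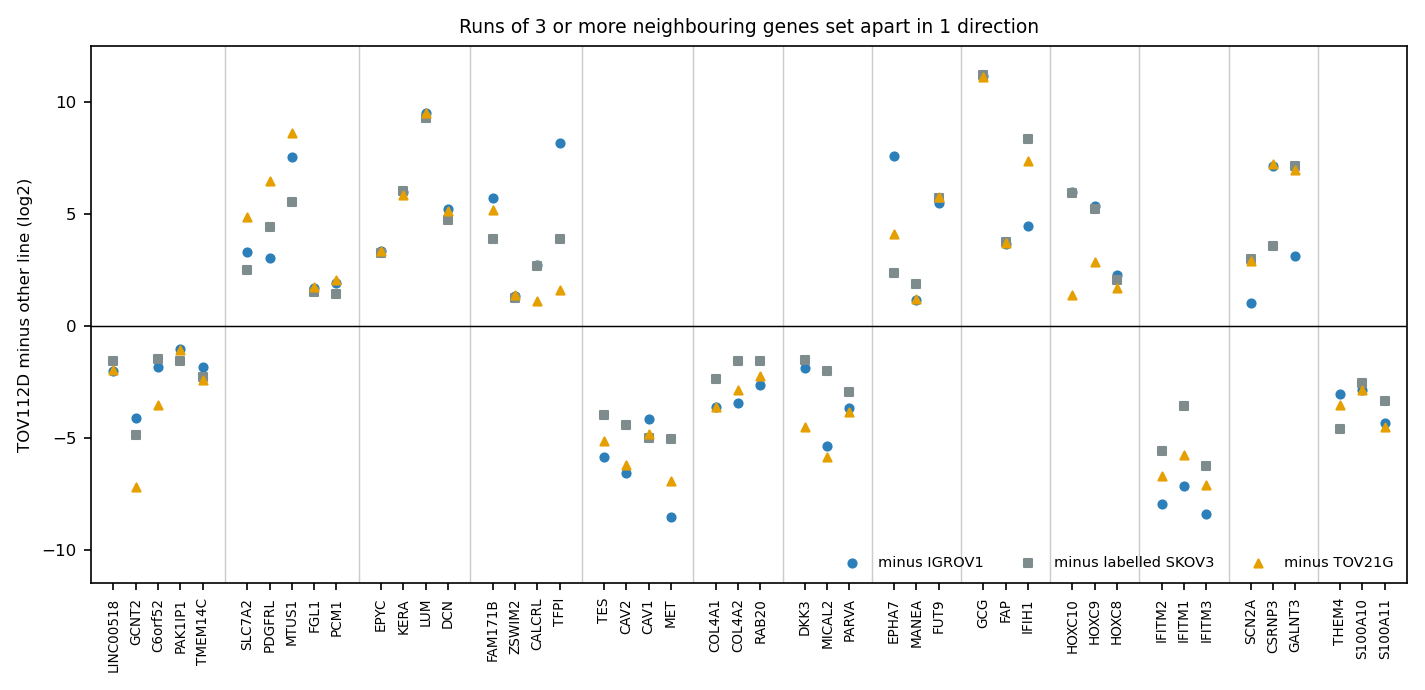
Difference of TOV112D from each other line on the log2 scale (vertical axis) for the 46 genes in 13 runs of neighbouring genes, separated by grey lines; marker shape and colour give the line subtracted. Every point of a run lies on 1 side of 0. Differences from the mean of the others, which are not drawn, ran from 11.13 for GCG to -7.26 for IFITM3.

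Other probe sets of the same genes gave a second reading. Of the 1064 set apart genes, 672 had at least 1 further probe set, and in 561 of these all of them differed in the same direction. Among further probe sets with a line mean at or above the median of all gene values, 693 of 701 (98.9%) had the same sign, against 1340 of all 1467 (91.3%). Fewer, 766 of the 1467, differed by at least 1 in that direction.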

How the data were processed

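Transcript levels in 4 untreated lines were measured on 12 arrays, 3 a line, assigned by title. The deposited table holds log2 values of 54675 probe sets that the authors made with RMA in affy, per the submitters' processing notes. Version and annotation: not given in the sources used here. RMA subtracts background and quantile-normalizes arrays, so a difference in total RNA cannot be seen, and 3 arrays a line limit the precision. No detection calls were used. Left out were 62 control probe sets and 1801 that name several genes. Each gene was read from its brightest probe set (1140 of these end in _x_at and are open to cross-hybridisation). Symbols and neighbour order came from RefSeq GRCh38.p14.

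Testing used limma 3.58.1 (R 4.3.3) with a linear model (1 mean per line, 8 residual degrees of freedom, eBayes, Benjamini-Hochberg adjustment over all 19775 genes per contrast), after the script was checked on simulated data. Named genes were the given markers GCG, COL3A1, LUM and AXIN2; per class the 8 largest positive and 6 largest negative differences, and per list the 2 largest each way, among set apart genes whose highest line mean reached the median and whose probe set does not end in _x_at; members of 4 context lists; and members of neighbour runs. Levels of ERBB2 and ZEB2, and other genes said to be so, were named after their values were seen. Members and lists were chosen with earlier results of these data known. Alternatives were averaging the probe sets of each gene, no _x_at probe sets, a filter on dim genes, median centring, quantile normalization, a trended and robust prior, a minimum difference of 2, the replicate number as a block, and leaving out each array or the arrays labelled SKOV3.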

Additional observations from a re-analysis of the deposited data

Results flagged for a closer look

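Probe sets that the annotation pairs with no gene, 11721 in all, took no part in the comparisons above. When they were fitted as a table of their own, 170 were set apart higher in TOV112D (1.45%) and 45 lower (0.384%) by the same rule, a signal in data that the report does not use. These transcripts are unnamed here.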

How the results depend on the processing

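Counts stayed within 1.5 times the reported ones under every alternative except 2. Without the arrays labelled SKOV3, where only 2 lines had to differ, 998 genes were set apart higher and 1032 lower, with 87 and 114 surface genes, 71 secreted genes lower, 126 and 46 transcription factors, and 45 and 67 metabolic genes; all 1064 set apart genes were kept. With a minimum difference of 2, 28 and 25 surface genes, 32 secreted genes higher, 34 and 11 transcription factors, and 8 and 8 metabolic genes were set apart. Leaving out each array in turn gave 588 to 616 genes set apart higher and 461 to 477 lower. Same-numbered arrays of different lines showed no clear shared deviation (mean correlation 0.020, range -0.100 to 0.128, against -0.010 for other numbers). Whether the numbers pair the samples is not settled by this. With the replicate block the counts were 594 and 470, with all 1064 genes kept. Since every line has the same replicate numbers, the block cannot change the differences between lines, so this result says little about pairing. Averaging all probe sets of each gene kept 819 of the 1064, and median centring 1021. SMARCA2 reversed, at 0.02 without _x_at probe sets against -1.82, since another probe set then read the gene. Under that average the genes ABCA5 (-0.83), ABCC8 (0.72), ARID1A (0.87), ETV1 (0.95), FGF11 (0.98), LINC00518 (-0.98), MCCC2 (-0.85), NT5C2 (-0.59), PDE4A (0.91), PDK1 (-0.74), PLXNA1 (-0.58), RGMB (-0.97), SMARCA2 (-0.52), SMARCC2 (0.76) and SMARCD3 (0.84) came under a difference of 1 in size. Signal near the floor limits differences of genes whose lower mean is under 4.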
